A study of Homo sapiens with 4 samples.

Results

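Sub-population 4 is 1 of 19 groups into which the authors clustered single-cell transcriptomes of 4 related lung cancer lines, and it held 2603 of 24441 cells (10.7%), which made it the fifth largest. It was taken as the column of that number in the deposited table of mean corrected UMIs (unique molecular identifiers, each marking 1 captured transcript), and the study describes it as prevalent in the C2 line. The share of each line in it was not analysed here. C2 cells were isolated from brain metastases that PC9-BrM4 cells formed in mice given vehicle. R2 cells were isolated in the same way from mice given osimertinib, an inhibitor of the EGFR kinase. PC9-BrM4, labelled BM4, came from brain metastases of PC9 cells after repeated passage through mice by arterial injection. PC9 is an established human lung adenocarcinoma line with an activating deletion in EGFR, from which the other 3 lines descend. All were grown for 3 days in culture without drug, so no group was under osimertinib when it was sampled.

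Sub-population 4 was set beside 5 (prevalent in R2, 2047 cells), 6 (in PC9-BrM4, 1844 cells) and 3 (in PC9, 2664 cells), and beside 0 (3373 cells), the other large sub-population of C2. Columns 4, 5, 6 and 3 are those richer in transcripts of G2 and mitosis (G2/M) within their line. They are not equal in cycle state: a G2/M gene list summed to 7046 CPM (defined below) in 4, 6221.5 CPM in 5, 6790 CPM in 6 and 9016 CPM in 3. Differences from 3 may thus hold cycle as well as line. The remaining large sub-populations are 1 (R2), 7 (PC9-BrM4) and 2 (PC9). Each line gave 1 library, from 3 passages combined, so line and library cannot be told apart and no difference has a replicate check. The columns were clustered from the same values, and a column prevalent in a line is not made of that line alone, so all differences are descriptions. Mean corrected UMIs per cell were 14611 in 4, 15200 in 5, 15006 in 6, 15409 in 3 and 14022 in 0. Values are given as CPM, corrected UMIs rescaled to a common total of 1000000 per column, and a log2 difference is that of log2(CPM + 5), which understates the change of low genes. A gene was measured at a mean of at least 10 CPM in the compared columns, and was called higher or lower at a difference of at least 1, a 2-fold change. Over 2723 values of the genes described, the exact 95% Poisson interval of a summed count had a median half-width of 4.04% of the value. The largest was 11.9%. Values of few counts, such as those of MGP in 3, BST2 in 6, and LCP1 and ALDH1A1 in 4, have wider intervals than this. All intervals cover counting error only.

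A dividing cell copies its DNA in S phase, prepares in G2 and separates the copies in mitosis. Entry into mitosis is driven by the kinase CDK1 with cyclins A and B. Topoisomerase II alpha, the product of TOP2A, untangles the copied DNA, condensins compact it, and linker histones of the H1 family pack it. Kinetochores built on the centromeric histone CENPA hold the spindle, kinesins move it, and the anaphase-promoting complex with CDC20 then marks cyclin B and securin for destruction. Many genes of this programme are held in check by the DREAM complex and switched on by MuvB with B-MYB and FOXM1 and by NF-Y, through promoter elements named CHR and CCAAT.

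The promoters of 5 such genes are shown to set genes that were higher in 4 beside genes that were not. Each holds CCAAT and all but that of TOP2A hold TTTGAA, the CHR letters, on 1 strand or the other. TOP2A, CDK1 and PLK1 were higher in 4 than in 0, while CCNB2 and CDC20 were not. Each is the 150 bases before the RefSeq transcription start on GRCh38.p14, written 5′ to 3′ on the gene's strand, with capitals for TTTGAA or CCAAT, each searched on both strands and written ATTGG or TTCAAA where it lies on the other strand. They are chr17:40417897-40418046 (minus strand) for TOP2A, chr10:60778328-60778477 (plus) for CDK1, chr16:23678739-23678888 (plus) for PLK1, chr15:59104996-59105145 (plus) for CCNB2 and chr1:43358831-43358980 (plus) for CDC20.
TOP2A: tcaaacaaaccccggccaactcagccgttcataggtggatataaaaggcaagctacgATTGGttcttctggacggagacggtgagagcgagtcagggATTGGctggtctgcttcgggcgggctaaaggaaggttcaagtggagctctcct
CDK1: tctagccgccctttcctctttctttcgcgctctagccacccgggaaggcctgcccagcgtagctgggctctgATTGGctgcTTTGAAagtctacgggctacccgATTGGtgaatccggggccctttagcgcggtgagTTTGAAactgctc
PLK1: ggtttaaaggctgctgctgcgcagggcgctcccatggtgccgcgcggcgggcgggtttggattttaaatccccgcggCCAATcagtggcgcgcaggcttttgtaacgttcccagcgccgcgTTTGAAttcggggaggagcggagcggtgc
CCNB2: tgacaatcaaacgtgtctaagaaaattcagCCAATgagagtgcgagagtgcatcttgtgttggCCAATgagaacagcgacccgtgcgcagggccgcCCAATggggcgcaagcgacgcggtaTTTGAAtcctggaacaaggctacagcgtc
CDC20: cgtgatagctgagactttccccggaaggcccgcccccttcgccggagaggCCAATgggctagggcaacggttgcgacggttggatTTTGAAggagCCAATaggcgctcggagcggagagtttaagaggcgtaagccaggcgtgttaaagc

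TTTGAA was in 35.1% of the promoters of genes that were higher in 4 than in 0 and CCAAT in 71.9% (57 of these 68 genes had a promoter in the table). Over 5923 promoters of measured genes the shares were 3.55% and 28.0%, and over all 13398 matched promoters 4.24% and 26.6%. Both motifs together were in 29.8% of the promoters of genes higher in 4 than in 0, against 1.55% over measured genes. Within the list of G2/M phase genes, the 23 with TTTGAA had a median log2 difference of 0.68 between 4 and 0, with 9 genes called higher, and the 19 without it had a median of 1.05, with 10 called higher. A match is a description of letters and not of a bound site.

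Within the C2 line, 4 stood above 0 in histone genes and in part of the genes of spindle, kinetochore and chromosome structure. Of 7182 measured genes, 68 (0.947%) were higher in 4 by 2-fold and 0 (0.0%) were lower. Of 51 measured G2/M phase genes, 24 were higher by 2-fold and 49 lay above 0, with a median log2 difference of 0.97 against 0.18 over all measured genes, of which 80.3% lay above 0. With that median subtracted, 21 of the 51 passed 2-fold, and 20 did in the table of uncorrected counts. Genes of S phase had a median of 0.25, with only RRM2, a subunit of ribonucleotide reductase, called higher (1 of 42, log2 difference 1.35). The marker TOP2A, at chr17:40388525-40417896 (GENCODE, GRCh38), had 348 CPM in 4 and 50.7 CPM in 0. That is 5.08 UMIs per cell in 4 (95% interval 4.99 to 5.17) against 0.711 in 0 (0.682 to 0.740), a ratio of CPM of 6.86 (6.57 to 7.17).

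Genes for entry into mitosis were called higher in 7 of 18 cases. CDK1 had 210 CPM in 4 and 30.8 CPM in 0, a log2 difference of 2.59, and PLK1, a kinase of centrosomes and mitotic entry, had 88.7 CPM in 4 and 29.5 CPM in 0. Cyclin A2 (CCNA2, 1.34), cyclin F (CCNF, 1.77), the phosphatase CDC25B (1.10), the kinase AURKA (1.27) and the transcription factor FOXM1 (1.05) were also higher. With the median of all genes subtracted, or adjusted for length or level, 5 of the 18 passed. The B-type cyclins were not: CCNB1 had 175 CPM in 4 and 184 CPM in 0, and CCNB2 had 41.9 CPM in 4 and 52.6 CPM in 0. All 20 listed genes were in the table, and those not called ran down to a difference of -0.30.

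The chromosomal passenger complex corrects faulty spindle attachments, and 3 of its 4 genes were higher in 4 than in 0. AURKB, its kinase, had 88.4 CPM in 4 and 21.4 CPM in 0, and INCENP (1.65) and CDCA8 (1.67) were higher as well. BIRC5, which encodes survivin, had 146 CPM in 4 and 121 CPM in 0. At the kinetochore 5 of 21 genes were higher, and CENPA led with 67.2 CPM in 4 and 12.6 CPM in 0. The others were CENPE (1.35), CENPF (1.12), NDC80 (1.05) and KNL1 (1.06), and CENPW stood at the bottom with 0.01. The count was 2 with the median of all genes subtracted or with the length adjustment, and 3 with the level adjustment or in uncorrected counts. In the spindle assembly checkpoint, 4 of 9 genes were higher, among them the kinases TTK (1.24) and BUB1B (1.01) and the cohesin protectors SGO1 and SGO2 (1.02 each). Only 1 of the 9 passed with the median subtracted or with either adjustment, and 2 did in uncorrected counts.

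Kinesins and spindle proteins had the most calls of the groups by role, 15 of 29, with a median of 1.08. KIF23, a kinesin of the central spindle, had 81.9 CPM in 4 and 25.7 CPM in 0. NUSAP1 (1.60), KIF2C (1.60), KIF14 (1.55) and GTSE1 (1.79) were of like size. KIF20B and KIF22 did not pass, at 0.62 and 0.71, and the tubulins TUBA1B and TUBB4B lay at 0.04 and 0.15. Of cytokinesis genes only KIF23 was called (1 of 9). Among chromosome proteins 5 of 16 were called, namely TOP2A, MKI67 (1.5), HMGB2 (1.53), H2AFX (1.30) and the condensin subunit NCAPH (1.28). The condensin genes SMC2 (0.26) and SMC4 (0.61), which both condensin complexes share, were not. In uncorrected counts 2 of the 16 passed.

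The anaphase-promoting complex and its partners were the exception among the mitotic groups, with a median of 0.33. UBE2C, the ubiquitin-conjugating enzyme of the complex, had 382 CPM in 4 and 67.8 CPM in 0, and its inhibitor FBXO5 (1.32) and its substrate CDCA3 (1.47) were higher. Its activator CDC20 had 91.3 CPM in 4 and 99.5 CPM in 0, and PTTG1, which encodes securin, had 154 CPM in 4 and 237 CPM in 0, a log2 difference of -0.61. CDKN3, a phosphatase of cyclin-dependent kinases, stood at -0.21. The label mitotic therefore holds for the G2/M list as a whole but not for CCNB1, CCNB2, CDC20, PTTG1 and CDKN3, which were at or below their level in 0. These 5 genes were singled out after their values were seen.

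**Figure D1:**
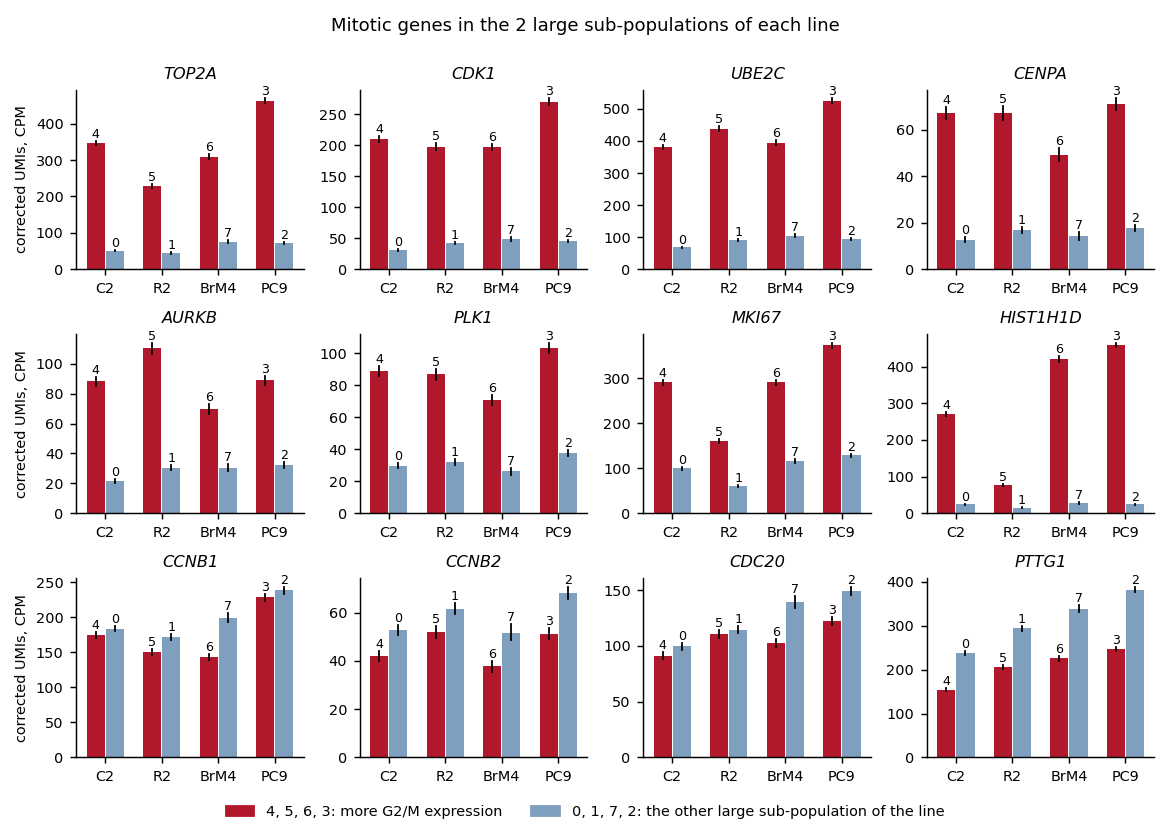
Corrected UMIs in CPM of 12 mitotic genes, with the sub-population richer in G2/M transcripts left of the other large sub-population of its line and bars for the exact 95% Poisson interval of counting. TOP2A, CDK1, UBE2C, CENPA, AURKB, PLK1, MKI67 and HIST1H1D stand above their partner in all 4 lines, whereas CCNB1, CCNB2, CDC20 and PTTG1 do not in any.

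The correction to a common depth left a difference between these columns that bears on low genes. Over 6694 genes with 0.05 to 0.5 corrected UMIs per cell, the median level in 0 was 0.755 of that in 4 after correction and 0.706 before it. For sub-population 3 it was 1.31 after correction and 1.47 before it, for 5 it was 1.02 and 1.03, and for 6 it was 1.07 and 1.09. Its part in the differences was not tested. In the table of uncorrected counts all 68 genes higher in 4 than in 0 had the same direction, and 52 of them passed 2-fold there.

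The difference between 4 and 0 had counterparts in the other lines. Over the 52 G2/M phase genes measured across all 8 large sub-populations, the median log2 difference was 0.94 for 4 minus 0 in C2, 0.90 for 5 minus 1 in R2, 0.79 for 6 minus 7 in PC9-BrM4 and 0.96 for 3 minus 2 in PC9. Genes past 2-fold numbered 24 in C2, 23 in R2, 15 in PC9-BrM4 and 23 in PC9. The C2 value was above that of PC9-BrM4 for 50 of the 52 genes, above that of R2 for 29 and above that of PC9 for 35. Over all 7397 genes measured there, the C2 value was above that of PC9-BrM4 for 3687, above that of R2 for 2241 and above that of PC9 for 4687. All 68 genes higher in 4 than in 0 also lay above 0 in each of the other lines, and 57 passed 2-fold in R2, 34 in PC9-BrM4 and 54 in PC9, with 32 doing so in all 3. No gene differed in C2 from each of the 3 other lines by 1 or more on the log2 scale. The largest such least difference was 0.38, for FAM111A, a protease of replication forks, whose own difference was 1.5 in C2 against 1.12 in R2, 1.01 in PC9-BrM4 and 1.10 in PC9.

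**Figure D2:**
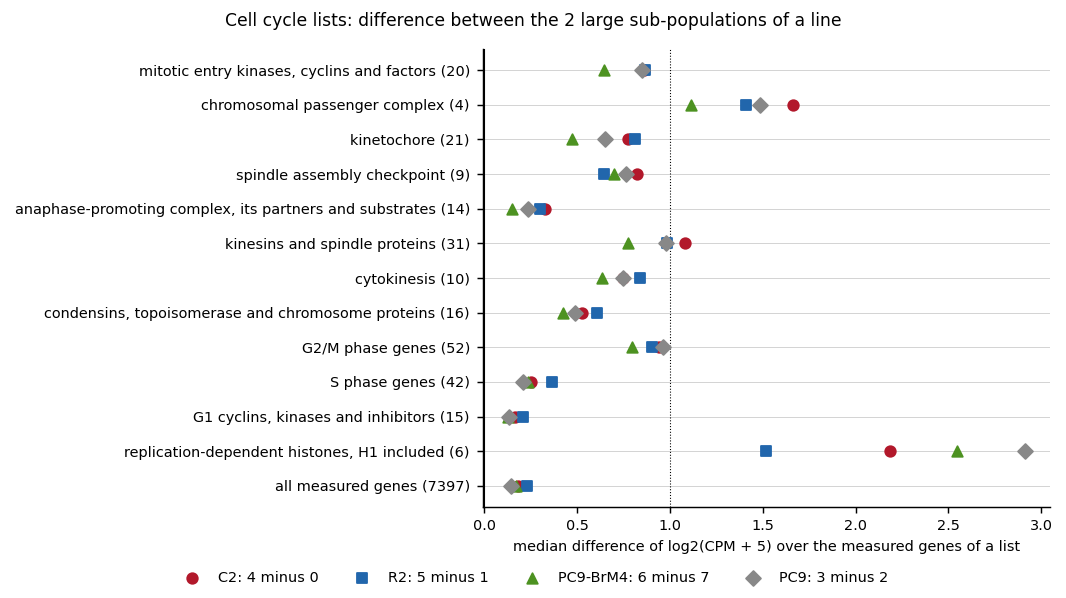
Median difference of log2(CPM + 5) between the sub-population richer in G2/M transcripts and the other large sub-population of each line, for 12 cell cycle lists (measured genes in brackets) and all measured genes. PC9-BrM4 has the lowest median in each mitotic list except the spindle assembly checkpoint, where R2 has it, and the lines differ most in the histone list.

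The histone list varied more among lines than the other cell cycle lists. Over its 6 measured genes, including the H1 linker histones, the median difference was 2.19 in C2, 1.52 in R2, 2.55 in PC9-BrM4 and 2.91 in PC9. HIST1H1D had 271 CPM in 4, against 76.9 CPM in 5, 420 CPM in 6, 459 CPM in 3 and 25 CPM in 0. HIST1H1E had 133 CPM in 4, against 31.2 CPM in 5, 214 CPM in 6, 245 CPM in 3 and 23 CPM in 0. Both were thus higher in 4 than in 5 and lower in 4 than in 6 and 3. HIST1H1B followed the same order, with 123 CPM in 4, against 31.2 CPM in 5, 305 CPM in 6 and 331 CPM in 3. HIST1H1A did not, with 27.8 CPM in 4, its highest level in any of the 19 columns, against 15 CPM in 5, 2.24 CPM in 6 and 4.51 CPM in 3. HIST1H4C, a core histone gene, was higher than in 0 (1.84) but differed by -0.26 from 5. Transcripts of these genes mostly lack the poly(A) tail on which the 3′ assay primes, and the family is of close copies, so their levels are uncertain.

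Against sub-population 5, the R2 column richer in G2/M transcripts, few genes passed 2-fold. Of 7539 measured genes 31 (0.411%) were higher in 4 and 0 (0.0%) were lower, and 689 were higher and 94 lower by 0.5 on the log2 scale. After the histones, AKR1C1 led the higher genes (1.42). It is an aldo-keto reductase, as are AKR1C2 (1.23) and AKR1B10 (1.22), and these enzymes reduce carbonyl compounds and steroids. AKR1C1 had 272 CPM in 4 and 98.5 CPM in 5, AKR1C2 had 138 CPM in 4 and 56.2 CPM in 5, and AKR1B10 had 268 CPM in 4 and 112 CPM in 5. AKR1C1 and AKR1C2 are near-identical, so reads may be shared between them. Together with UGDH, which makes UDP-glucuronate, they were the 4 of 25 measured NRF2 targets that were called, and 21 of the 25 lay above 0, with a median of 0.38 (49.9% of all measured genes lay above 0).

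DDX3X, an RNA helicase, had 122 CPM in 4 and 46.3 CPM in 5. SPTBN1, a spectrin of the membrane skeleton, had 206 CPM in 4 and 82.8 CPM in 5, and MYOF, a membrane repair protein, had 252 CPM in 4 and 104 CPM in 5, so that both were more than 2-fold higher in 4. PLK2 (1.19), HNRNPU (1.18), the protocadherin PCDH7 (1.18) and the desmosomal protein DSP (1.18) were also higher. Each of these stood at nearly its level of 4 in 0, with log2 differences between 4 and 0 of at most 0.22 in size. ITGA2, an integrin subunit that binds collagen and that the study lists among laminin receptors, had 249 CPM in 4 and 117 CPM in 5. The study reports it as upregulated in R2 sub-populations relative to C2 cells, over other groups of cells than this pair of columns. In this pair it ran the other way. Adjusted for transcript length, the differences of SPTBN1 (0.87), MYOF (0.98), HNRNPU (0.92), PCDH7 (0.86), DSP (0.79) and ITGA2 (0.72) were below 2-fold, while those of AKR1C1 (1.15), AKR1B10 (1.42), DDX3X (1.13) and PLK2 (1.16) were not. Among genes lower in 4 that fell short of the threshold were DRAM2 (-0.81), PHGDH (-0.77), the GTPase RHOC (-0.76) and MGP (-0.69). RHOC had 128 CPM in 4 and 220 CPM in 5.

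Of 53 measured G2/M phase genes, 0 passed 2-fold between 4 and 5 and 42 lay above 0, with a median of 0.27, where 49.9% of all measured genes lay above 0 with a median of -0.00. In uncorrected counts 1 of the 53 was lower. ANLN, a scaffold of the cleavage furrow, had the largest difference, with 145 CPM in 4 and 73.5 CPM in 5, and MKI67 had 290 CPM in 4 and 160 CPM in 5. PSRC1 was lowest with -0.76. AURKB had 88.4 CPM in 4 and 110 CPM in 5. All 13 mitochondrially encoded transcripts lay above 0 (49.9% of all measured genes did), with a median of 0.36, but only MT-ND6 was called (1.21), and the percentage of mitochondrial transcripts had been a covariate of the correction. Of 14 genes of endoplasmic reticulum chaperones only calnexin (CANX, 1.02) was called. It was below 2-fold with the length adjustment (0.83), and in uncorrected counts 3 of the 14 passed. Over all genes 123 were higher and 60 lower in uncorrected counts.

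The differences between 4 and 5 followed transcript length. Across 7465 genes with an annotated length, the Spearman correlation between length and log2 difference was 0.63, and 0.57 in the table of uncorrected counts. Genes are not independent replicates, and the value describes this pair of columns. Across quartiles of length, in order from short to long, the median difference was -0.25, -0.07, 0.13 and 0.29. The genes called higher in 4 had a median length of 5069 bases, against 3092 over all measured genes. Against 6, 3 and 0 the same correlation was -0.02, -0.01 and 0.17. After each gene was set against the median of its length bin, 18 genes were higher in 4 than in 5, of which 14 were among the 31. The part of length in the single differences was not tested.

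**Figure D3:**
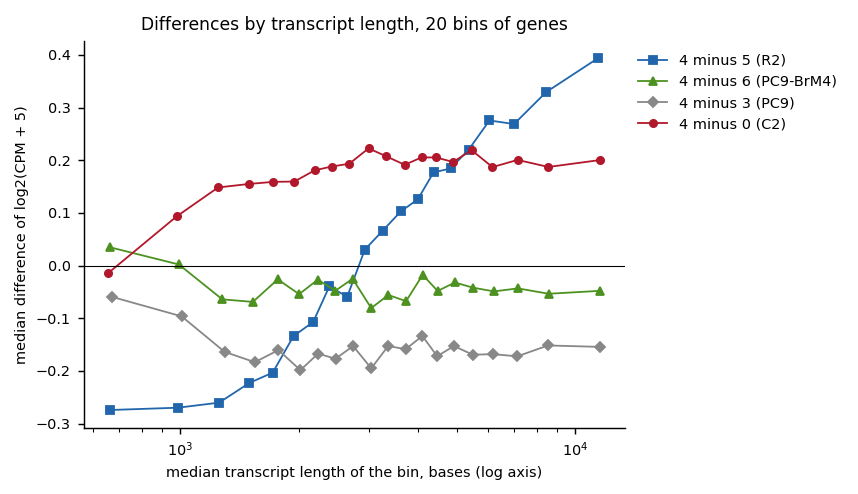
Median difference of log2(CPM + 5) of sub-population 4 from 5, 6, 3 and 0 in 20 bins of genes ordered by transcript length in bases (log axis). The difference from 5 runs from below 0 in short transcripts to above 0 in long ones, and the differences from 6 and 3 show no such course.

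Against sub-population 6, the PC9-BrM4 column and the line from which C2 was derived, BST2, PI3, S100A4 and LCN2 were higher in 4 and fibronectin lower. Of 7625 measured genes 139 (1.82%) were higher in 4 and 59 (0.774%) were lower. BST2, which encodes tetherin, an interferon-induced protein that holds virus at the membrane, had 125 CPM in 4 and 3.65 CPM in 6, a ratio of 34.3 (95% counting interval 28.1 to 42.2). S100A4, a calcium-binding protein tied to cell motility, had 177 CPM in 4 and 18.6 CPM in 6. PI3, an elastase inhibitor, had 76.8 CPM in 4 and 6.0 CPM in 6, and LCN2, an iron-binding secreted lipocalin, had 443 CPM in 4 and 67.2 CPM in 6. The cytokines IL11 (2.62) and IL32 (2.48), the aldose reductase AKR1B1 (2.45), the keratin KRT23 (2.69) and the small heat shock protein HSPB1 (2.07) were higher too. BST2 was the only 1 of 8 measured interferon-stimulated genes to be called, and in uncorrected counts 4 of 9 were. Over all genes 274 were higher in uncorrected counts.

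Fibronectin (FN1) was the lowest, with 12.5 CPM in 4 and 208 CPM in 6, followed by the actin-bundling protein LCP1, with 2.05 CPM in 4 and 72.8 CPM in 6. CYP1B1 (-1.98), which oxidises aromatic compounds and estrogens, the branched-chain aminotransferase BCAT1 (-1.81) and the transcription factor SOX4 (-1.62) were lower as well. In corrected values both FN1 and LCP1 were as low in 0 (9.90 and 1.95 CPM) and in 5 (9.77 and 1.83 CPM). In the table of uncorrected counts this held for FN1 in 0 but not in 5, with a log2 difference between 4 and 5 of -3.63, against 0.25 in corrected values. The uncorrected values appear to come from means of the exponential of each count, in which cells with many copies weigh most. Whether that made the FN1 difference was not tested. In cholesterol synthesis 2 of 15 genes were lower, led by FDPS (-1.46), and the list's median was -0.41, with 1 gene lower after the length adjustment. FN1 was also the only called gene of the mesenchymal list, in which 2 of 11 genes were measured. The G2/M list lay near 0, with a median of 0.06 over 54 genes, and only ANP32E, a histone chaperone, was called (-1.34). The transcription factor MYBL2, of the MuvB complex in S phase, was lower at -1.07.

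Against sub-population 3 of the PC9 parent, 131 of 7943 measured genes (1.65%) were higher in 4 and 95 (1.2%) were lower. The median of all genes was -0.16, and with it subtracted the split was 199 higher and 52 lower. MGP, a secreted inhibitor of calcification, had 368 CPM in 4 and 2.66 CPM in 3, a ratio of 139 (115 to 169). S100A4 had 177 CPM in 4 and 8.38 CPM in 3, and IL11 had 112 CPM in 4 and 4.95 CPM in 3. ANKRD1 (2.83), KRT17 (2.44), G0S2 (2.32) and the receptor component RAMP1 (2.34) were higher, as was MT1A (2.37), a metallothionein with close copies. In 94 genes 4 was higher than both 6 and 3, which is 67.6% of the genes higher than 6 and 71.8% of those higher than 3. These comparisons share sub-population 4.

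The aldehyde dehydrogenase ALDH3A1 was the lowest in 4 relative to 3, with 13.3 CPM in 4 and 203 CPM in 3. CYP1B1 came next, with 11.3 CPM in 4 and 138 CPM in 3, and then ALDH1A1, with 0.368 CPM in 4 and 35.5 CPM in 3. Of 16 measured glutathione S-transferase and aldehyde dehydrogenase genes 2 were lower and 2 higher. LCP1 was lower too, with 2.05 CPM in 4 and 39.7 CPM in 3. The list of NRF2 targets ran the other way from the comparison with 5: AKR1C1 had 272 CPM in 4 and 610 CPM in 3, AKR1B10 had 268 CPM in 4 and 966 CPM in 3, and 5 of 25 genes were lower, with 1 (AKR1B1) higher and a median of -0.54. With the median of all genes subtracted 3 of the 25 were lower, and in uncorrected counts 2 of 23. FOS (-2.04), an immediate early transcription factor, the cytoskeletal protein MAP2 (-2.06) and the secretory protein AGR2 (-1.96) were lower. Of the G2/M list 3 of 54 genes were lower (ANP32E, CENPF and CDC25C) and 0 higher, with 5 above 0 and a median of -0.36. With the median of all genes subtracted the list's median was -0.20 and 1 gene was lower, and in uncorrected counts 8 were. Over all genes 187 were lower in uncorrected counts, against 95 in corrected values. CENPF, a kinetochore protein, had 315 CPM in 4 and 651 CPM in 3. Among kinesins and spindle proteins 3 of 31 were lower, led by KIF20A (-1.21), and 1 with the median subtracted.

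**Figure D4:**
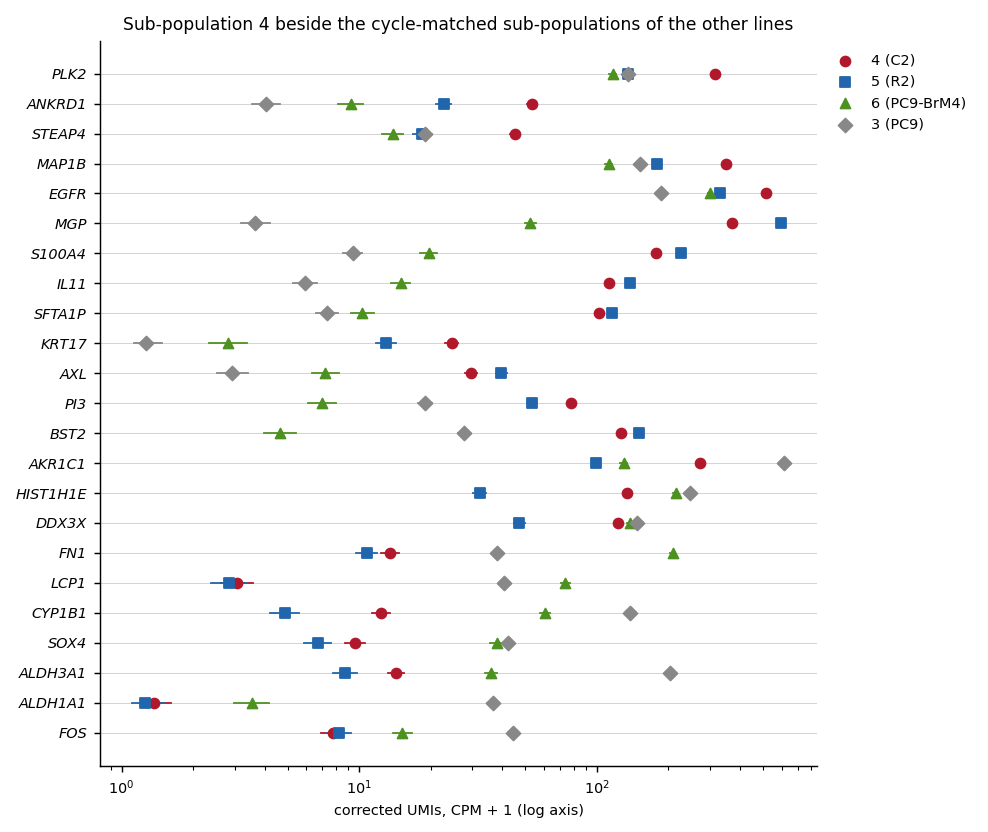
Corrected UMIs in CPM + 1 (log axis) of 23 genes in sub-populations 4, 5, 6 and 3, with lines for the exact 95% Poisson interval of counting. In PLK2, ANKRD1, STEAP4, MAP1B and EGFR sub-population 4 lies right of the other columns. From MGP to BST2 both 4 and 5 lie above 6 and 3, though not always together, and from FN1 to FOS both lie below 6 and 3.

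EGFR, the receptor that carries the driver deletion of these lines and the target of osimertinib, had its highest level among the 8 large sub-populations in 4. At chr7:55019017-55211628 it had 513 CPM in 4, against 328 CPM in 5, 299 CPM in 6, 185 CPM in 3 and 471 CPM in 0. Its log2 difference was 0.64 from 5, 0.77 from 6, 1.45 from 3 and 0.12 from 0, so that only the difference from 3 passed 2-fold. The difference from 5 was 0.24 after the length adjustment. In UMIs per cell it had 7.49 in 4 (7.39 to 7.6), 4.99 in 5, 4.49 in 6 and 2.85 in 3. Among ligands of the receptor, AREG had 132 CPM in 4, against 122 CPM in 5, 42.7 CPM in 6 and 27.9 CPM in 3, and TGFA was higher than in 3 (1.04). ERBB3 differed by no more than 0.22 in size from 5, 6 and 3.

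The marker MGP, at chr12:14880864-14885857, did not set 4 apart from R2. It had 368 CPM in 4, against 595 CPM in 5, 51.6 CPM in 6, 2.66 CPM in 3 and 353 CPM in 0. It was thus 7.14 times (6.76 to 7.55) its level in 6 and 0.619 times (0.605 to 0.632) its level in 5. Of 10 measured secreted matrix genes MGP was the only one higher in 4 than in 6, and FN1 the only one lower, and in uncorrected counts 2 of 9 were higher. Cytokine and NF-kB target genes were higher in 4 of 10 cases against 6 and 3 of 9 against 3, and 0 of 10 against 5, where 1.82%, 1.65% and 0.411% of all measured genes were. In uncorrected counts they were higher in 7 of 10 cases against 6 and 3 of 10 against 5. More genes of all kinds passed there, with 274 higher against 6 and 123 against 5, where corrected values gave 139 and 31.

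Genes driven by YAP and TEAD, transcription regulators of mechanical tension, were led by ANKRD1 against 6, 3 and 0 and by MYOF (1.24) against 5. The list had medians of 0.43 against 5, 0.49 against 6 and 0.31 against 3, with 2 of 16, 2 of 15 and 3 of 17 genes called higher, and 1 of the last 17, TGFB2, called lower, which 0 of 15 were in uncorrected counts. Over all genes the medians were -0.00, -0.04 and -0.16, with 0.411%, 1.82% and 1.65% called higher. With the length adjustment the list's median against 5 was 0.24, with 1 gene called. AXL, a receptor kinase in the list, had 28.6 CPM in 4, against 38.7 CPM in 5, 6.22 CPM in 6 and 1.92 CPM in 3. CYR61, a secreted matricellular protein, had 126 CPM in 4, against 98.2 CPM in 5, 74.4 CPM in 6 and 43.5 CPM in 3. Of the 11 measured genes that the study names, ITGA2 was the only one called against 5 (0 after the length adjustment), while 2 were called against 6 and 5 against 3, all higher. In uncorrected counts 2 of 12 were higher and 1 lower against 5, and 5 of 11 were higher against 6. Over all genes these counts had 123 higher and 60 lower against 5, and 274 higher against 6. PRNP, the prion protein gene, had 158 CPM in 4, against 139 CPM in 5, 71.1 CPM in 6 and 39.9 CPM in 3, and FOSL1, an AP-1 subunit, had 101 CPM in 4, against 107 CPM in 5, 62.8 CPM in 6 and 43.4 CPM in 3.

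The MetRes signature is a list the study derived from these samples and so no independent evidence of direction. It holds genes that distinguish 3 sub-populations, 5 among them, so its values against 5 partly follow from how it was chosen. It was higher in 4 than in 6 for 75 of 251 measured genes, with a median of 0.64. Against 3 it was higher for 71 of 254 genes and lower for 1, with a median of 0.56. Against 5 it was higher for 3 of 254, with 65 above 0 and a median of -0.22, and against 0 for 11 of 253, with a median of 0.08. Over all genes 1.82%, 1.65%, 0.411% and 0.947% were higher in 4 than in 6, 3, 5 and 0, with medians of -0.04, -0.16, -0.00 and 0.18. The comparison with 5 moved with the processing, to a median of -0.00 and 1 gene higher with the length adjustment and to 12 higher and 21 lower in uncorrected counts, where 31 were higher than in 0. Over all genes, uncorrected counts had 123 higher and 60 lower than in 5, and 99 higher than in 0. Lists of glycolysis and proteasome genes had 0 calls in all 4 comparisons, with medians below 0 and none under -0.18, and 0 to 2 genes of each were lower in uncorrected counts. Between 4 and sub-population 0, however, 29 of 31 proteasome and 10 of 17 glycolysis genes had a negative difference. Of all measured genes 80.3% had a positive one there. Of 15 measured heat shock genes HSPB1 was the only one called, against 6 and 3, and 11 had a negative difference from sub-population 0, with a median of -0.23. In uncorrected counts 2 of 14 were lower than in each of 5, 6 and 3, where 60, 161 and 187 of all genes were lower.

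Few genes set sub-population 4 apart from all of 5, 6 and 3. Of 7774 genes measured over the 4 columns, 3 (0.0386%) were higher in 4 by 2-fold against each and 0 (0.0%) were lower, where FN1 alone was lower in uncorrected counts. The uncorrected value of FN1 carries the limit given above. PLK2, a polo-like kinase of centriole duplication and stress signalling at chr5:58453982-58460139, had 313 CPM in 4, against 134 CPM in 5, 116 CPM in 6 and 134 CPM in 3. ANKRD1 had 52.2 CPM in 4, against 21.7 CPM in 5, 8.2 CPM in 6 and 3.07 CPM in 3, and STEAP4, a metal reductase, had 44.1 CPM in 4, against 17.4 CPM in 5, 12.8 CPM in 6 and 17.9 CPM in 3. PLK2 had 318 CPM in 0, STEAP4 34.6 CPM in 0 and ANKRD1 24.8 CPM in 0, so PLK2 was as high in the other C2 column. ANKRD1 and STEAP4 did not pass with a pseudocount of 20 CPM or a filter of 50 CPM, STEAP4 did not with the length adjustment (0.74 from 5), and PLK2 was not among the 24 genes that passed in uncorrected counts (0.67 from 3). Just below the threshold were MAP1B, a microtubule-binding protein whose least difference was 0.95, and TRIO, a guanine nucleotide exchange factor, with 0.89, and adjusted for length they differed from 5 by 0.56 and 0.49. E-cadherin (CDH1) had 118 CPM in 4, against 67.9 CPM in 5, 60.9 CPM in 6 and 52.3 CPM in 3. Leaving out 5 raised the number of genes higher in 4 to 83 and of genes lower to 34, so the comparison with R2 limits the count.

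Of the 7774 genes, 1128 (14.5%) were above all of 5, 6 and 3 at any size and 1949 (25.1%) were below all 3. By 0.5 on the log2 scale 45 were above and 5 below. The lowest of these was NUDT2, a nucleotide hydrolase, with 19.7 CPM in 4, against 32.1 CPM in 5, 34.9 CPM in 6 and 36.7 CPM in 3.

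The 45 genes lay unevenly over the chromosomes, a feature looked for after the values were seen and given without a test. Chromosome 5 held 16 of them (35.6%), against 4.71% of measured genes, and chromosome 7 held 7, with 362 of the 7774 measured genes. At any size, 30.1% of measured genes on chromosome 7 and 24.0% on chromosome 5 were above all 3 columns, against 14.5% over all. Chromosomes 22 and 16 had 22.7% and 22.1%. With the length adjustment 33 genes were above by 0.5, of which chromosome 5 held 8 (24.2%) and chromosome 7 held 6. The first 80 Mb of chromosome 5 held 12, among them TRIO, MYO10, ZFR, TARS, RAI14, PLK2, MAP1B, ENC1 and GPBP1. MAP1B, at chr5:72107234-72209565, had 350 CPM in 4, against 179 CPM in 5, 111 CPM in 6 and 150 CPM in 3, with 368 CPM in 0. TARS, a threonyl-tRNA synthetase, had 479 CPM in 4, against 260 CPM in 5, 292 CPM in 6 and 279 CPM in 3. ZFR, a zinc finger RNA-binding protein, had 207 CPM in 4, against 119 CPM in 5, 126 CPM in 6 and 122 CPM in 3. Log2 differences from 5, 6 and 3 were 0.87, 0.71 and 0.77 for TARS and 0.77, 0.69 and 0.74 for ZFR, so both stood above each of the other columns by similar amounts.

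In windows of 20 Mb, the 23 measured genes between 20 and 40 Mb of chromosome 5 had median differences of 0.35 from 5, 0.54 from 6 and 0.45 from 3, and of 0.20, 0.60 and 0.62 with the length adjustment. The 53 genes between 120 and 140 Mb had 0.03 from 5, -0.49 from 6 and -0.62 from 3, and 22 of them were below all 3 columns. The other C2 column showed the same course, with 0.39, 0.43 and 0.45 in the first of these windows and 0.10, -0.52 and -0.67 in the second for 0 minus 1, 7 and 2. On chromosome 6 the first 3 windows had medians between -0.40 and -0.66 against 6 and 3, and between -0.09 and 0.10 against 5. The second of them holds the HIST1 cluster, where HIST1H1E lies at chr6:26156329-26157115. On chromosome 7 the window of 40 to 60 Mb, which holds EGFR, had medians of 0.00 from 5, 0.49 from 6 and 0.52 from 3, and EGFR itself differed by 0.64, 0.77 and 1.45.

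**Figure D5:**
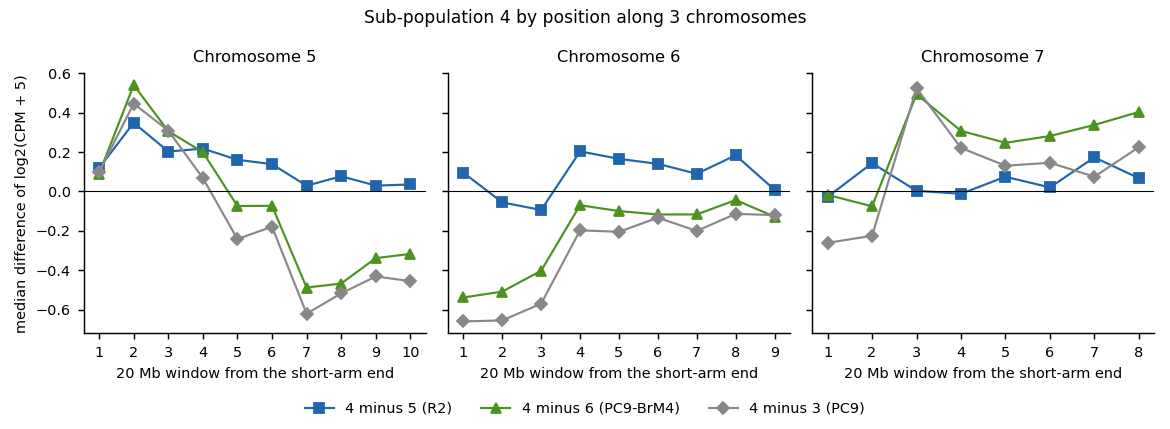
Median difference of log2(CPM + 5) of sub-population 4 from 5, 6 and 3 over measured genes in consecutive 20 Mb windows, counted from the short-arm end, of chromosomes 5, 6 and 7. On chromosome 5 all 3 lines lie above 0 in the first 4 windows, and those of 6 and 3 lie between -0.32 and -0.62 in the last 4.

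Among all 19 columns, 4 was closest by called genes to 17, a sub-population of 165 cells from which 1 gene passed 2-fold. That gene, DHRS2, a mitochondrial reductase, had 9.94 CPM in 4 and 482 CPM in 17. The next were 5 with 31 genes past 2-fold, 9 (821 cells) with 35 and 0 with 68, and the farthest was 16 with 4550. By the Spearman correlation of levels across genes the closest was 0 (0.988), then 5 (0.985) and 1 (0.984), with 17 at 0.973. The summed level of the G2/M list was 7046 CPM in 4, the fourth highest of the 19 columns, against 9016 CPM in 3, 7323 CPM in 17 and 7072 CPM in 11.

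Markers of other cell types were mostly low in 4. None of 8 fibroblast, 6 endothelial or 5 erythroid markers reached 10 CPM (2, 3 and 1 of them were in the table), and the fibroblast list summed to 2.0 CPM in 4, against 1.90 CPM in 5, 1.81 CPM in 6 and 2.53 CPM in 3. Of leukocyte markers only CD68, a lysosomal protein, reached 10 CPM, with 65.3 CPM in 4 and 25 CPM in 6 (1.23), and the 5 of 7 listed genes in the table summed to 66.0 CPM in 4, against 73.4 CPM in 5, 26.3 CPM in 6 and 34.7 CPM in 3. Of neural and glial markers only MBP did, with GFAP and RBFOX3 at 0 and a sum over 5 of 8 listed genes of 52.2 CPM in 4, against 39.8 CPM in 5, 81.6 CPM in 6 and 45.7 CPM in 3. Of 12 alveolar markers only CAV1 did, with the surfactant genes SFTPC and SFTPA2 at 0 and a sum over 8 genes of 253 CPM in 4, against 229 CPM in 5, 183 CPM in 6 and 183 CPM in 3. Airway secretory markers were present, with MUC16, SLPI, PI3, S100P and LCN2 above 10 CPM and a sum over the 8 of 12 listed genes in the table of 959 CPM in 4, against 958 CPM in 5, 282 CPM in 6, 627 CPM in 3 and 904 CPM in 0.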

How the data were processed

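Single-cell libraries were made by the authors with 10x 3′ version 3 chemistry, 1 per line (4 libraries). The study's methods name Cell Ranger and hg38 for alignment, with cells of at least 200 transcripts and genes in at least 3 cells kept. UMI counts were corrected by sctransform in Seurat 3, which also regressed out the mitochondrial percentage. The authors deposited mean corrected UMIs per cell of 19 sub-populations (19973 genes), and a second table of uncorrected counts (21158 genes), of which 140 overflowed values of 20 genes were left out. The values of the second table appear to be means of the exponential of each count minus 1, a reading that the study's methods do not give. On that reading they were converted here to mean counts as if the counts of a gene within a column followed a Poisson distribution. The Poisson assumption was not checked, and every result in uncorrected counts rests on it and on that reading. Doublets were not assessed, and cell barcodes were not used here.

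Cell numbers were recovered from the corrected table, as the smallest whole number that turned the lowest non-zero means of a column into whole UMIs within 0.001. Columns were rescaled to a total of 1000000 (CPM). With 1 library per line there was no test. The members and 44 gene lists were chosen with earlier results of these data known. Sub-populations 0, 1, 4 and 5 were placed by line from the study's text and 2, 3, 6 and 7 from its plot. Genes named were the 12 largest and 12 smallest called differences of each comparison with the same direction in the uncorrected table (ribosomal, mitochondrial and clone-named genes left out), genes beyond all 3 other lines, the largest in each list, and genes the study names. A few results under these rules are not reported here. Alternatives were pseudocounts of 1 and 20 CPM, a filter of 50 CPM, uncorrected counts, no rescaling, adjustment for transcript length, leaving out 1 column and, chosen after seeing the data, subtraction of the median of all genes or of genes of like level. Positions and lengths came from GENCODE 44 and promoters from RefSeq. Python 3.11.15, NumPy 2.4.6, pandas 2.3.3, SciPy 1.17.1 and Matplotlib 3.10.9 were used, and the script was tested on simulated data.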

Additional observations from a re-analysis of the deposited data

How the results depend on the processing

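Of the called genes, 31 of 31 higher than in 5, 136 of 139 higher and 58 of 59 lower than in 6, and 130 of 131 higher and 95 of 95 lower than in 3 had the same direction in uncorrected counts, while the counts themselves moved. Genes higher in 4 than in 5 (31) numbered 57 with a pseudocount of 1 CPM, 14 with 20 CPM, 123 in the table of uncorrected counts and 18 with the length adjustment, and genes lower (0) numbered 1 with 1 CPM and 60 in uncorrected counts. Genes higher than in 6 (139) numbered 61 with 20 CPM, 65 with the filter of 50 CPM and 274 in uncorrected counts, and genes lower (59) numbered 104, 17, 22 and 161 with 1 CPM, 20 CPM, the filter and uncorrected counts. Genes higher than in 3 (131) numbered 73 with 20 CPM, 73 with the filter, 225 in uncorrected counts, 200 length-adjusted and 199 with the median subtracted. Genes lower than in 3 (95) numbered 206 with 1 CPM, 32 with 20 CPM, 26 with the filter, 187 in uncorrected counts, 51 length-adjusted, 52 with the median subtracted and 55 level-adjusted. Genes higher than in 0 (68) numbered 34 with 20 CPM and 25 with the filter, and genes lower (0) numbered 24 in uncorrected counts, 2 length-adjusted and 1 level-adjusted. The median of the G2/M phase genes between 4 and 0 (0.97) was 0.64 with the filter. Genes above all of 5, 6 and 3 (3) numbered 1 with 20 CPM, 1 with the filter, 24 in uncorrected counts and 83 without 5, and genes below (0) numbered 1 in uncorrected counts and 34 without 5. The cause was not tested, except that the filter leaves fewer genes. Without rescaling every count was within 1.5 times its value. No paired analysis was possible because each line had 1 library.

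With 1 library per line, spread between cultures is unknown, and intervals cover counting error only. If the table of uncorrected counts holds means of exponentials, as it appears to, abundant genes in it are dominated by the cells with the most transcripts, which limits its use. Sub-populations hold cells of more than 1 line, and fewer cells of a state and less RNA per cell cannot be told apart in a column mean.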
